A study of Mus musculus with 2 samples.

Results

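The genes described here serve the import of proteins into mitochondria and the handling of mitochondrial RNA. They were chosen by symbol: every gene whose name starts with Timm or Tomm and a digit, together with Slirp, Lrpprc, Pam16, Grpel1, Dnlz, Pmpca, Pmpcb, Tfam and Polrmt. The group was proposed with the differences of Slirp and Timm17a between the arrays in view, so those differences are a description and support nothing. The rule found 33 genes, read by 37 probe sets, among 19937 genes with at least 1 probe set of a single symbol. Where a gene had more than 1 probe set, the one with the highest mean of the 2 arrays stood for it.

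The samples were Langerhans cells, antigen-presenting cells that reside in the epidermis and carry Langerin. They were profiled on 2 one-colour microarrays, 1 from Il34+/LacZ mice and 1 from Il34LacZ/LacZ mice. Il34 encodes a ligand of the CSF1 receptor. The first genotype keeps 1 working copy of Il34 beside a LacZ allele, the second carries LacZ in both copies, and no array of mice with 2 working copies was analysed here. All animals were 8 to 12 weeks old and had been treated with ultraviolet light for 30 min, and cells positive for Langerin and Epcam were sorted 21 days later. The labels do not say how many animals gave the RNA of an array. With n = 1 for each genotype there is no replicate error and no test, and every difference below is between these 2 arrays.

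Nearly all mitochondrial proteins are encoded in the nucleus, made in the cytosol and threaded through membrane channels. The TOM complex is the entry gate of the outer membrane, the TIM23 complex takes proteins with a cleavable presequence across the inner membrane, and a motor on the matrix side pulls them in before a peptidase removes the presequence. Small TIM proteins carry hydrophobic passengers between the membranes to the TIM22 complex. The mitochondrial genome itself is transcribed by the polymerase Polrmt with the factor Tfam, and its messenger RNAs are kept stable by the RNA-binding partners Slirp and Lrpprc.

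Import and mitochondrial RNA genes read mostly lower on the Il34LacZ/LacZ array, led by Slirp, Timm17a and Timm21. Of the 33 genes, 31 reached the floor, an intensity of 48.7 (the median over every probe set and both arrays), on at least 1 array. Tfam and Timm9 stayed below it on both. Of these 31, 8 were lower by 2-fold or more in Il34LacZ/LacZ (25.8%), against 12.1% of all 12843 genes that reached the floor, and 0 were higher by that much, against 1.67%. Those folds are on the log2(intensity + 16) scale, which understates differences of dim genes, and a reading below the floor was set at the floor. At 1.5-fold, 15 of the 31 read lower (48.4%), against 28.2% of all genes, and 0 higher, against 9.36%. The floor kept Timm8a2 and Tomm20l (measured differences 0.98 and 0.81) and Timm10 (-0.94) from passing 1.5-fold. The median difference, Il34LacZ/LacZ minus Il34+/LacZ, was -0.63 on the log2 scale over the 31 genes and -0.16 over all 12843. Without the floor it was -0.55 over all 33 genes and 0.09 over 19937. Without Slirp, Timm17a and Timm21, 5 of 28 genes were lower by 2-fold or more, beside 12.1% of all genes. By 1.5-fold or more 12 were lower, beside 28.2%, and the median was -0.55. Because the members were proposed with these values known, the counts are no independent evidence of a direction.

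The difference between the arrays depended on how bright a gene was, and the median level was 7.47 for the 31 genes and 6.92 for all, in log2(intensity + 16). As a second reading, a loess curve of differences against mean levels was therefore subtracted, so that a typical gene at any level is set to 0. With the trend removed 6 of the 31 genes were at least 2-fold lower (19.4%), against 7.07% of all genes, and 0 at least 2-fold higher, against 4.16%. At 1.5-fold 11 were lower (35.5%, against 18.6%) and 4 higher (12.9%, against 13.9%). The median was then -0.25 for the 31 genes and 0.03 for all. Without Slirp, Timm17a and Timm21, 3 of 28 genes were at least 2-fold lower, with a median of -0.2. Slirp, Timm17a, Timm21, Tomm5 and Tomm34 were at least 2-fold lower by both readings. For Timm17a this holds for the probe set used, while its other probe set gave -1.29 and, with the trend removed, -0.97. Timm10 passed only with the trend removed, through a reading below the floor in Il34LacZ/LacZ. The differences given by separate probe sets of a gene had an SD of 0.63 (log2), or 1.55-fold, over 614 genes, called the probe set SD below. That is the only error these files hold, and it covers probe noise and transcript forms, not animals or sorts.

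**Figure D1:**
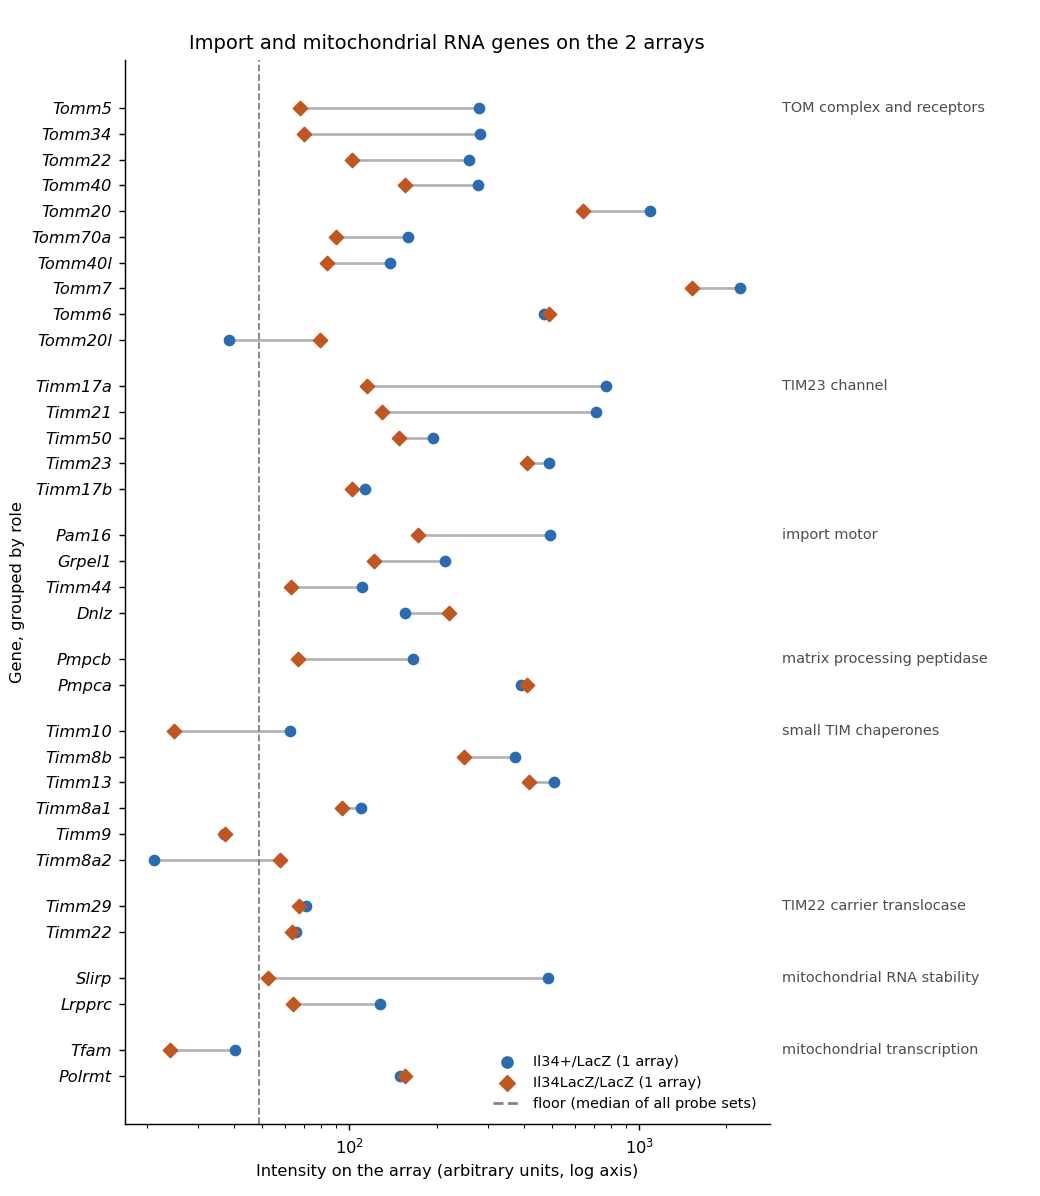
Intensity of each of the 33 genes on the Il34+/LacZ array (circles) and the Il34LacZ/LacZ array (diamonds), on a log axis and grouped by role, with the floor of 48.7 dashed. Slirp spans the widest gap, from 482.7 to 52.5, while Timm23, Tomm6 and Pmpca lie close together.

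The sort was checked on markers of Langerhans cells and of other cells of skin. All 12 Langerhans cell markers were above the floor on both arrays, with a summed intensity of 48286.2 in Il34+/LacZ against 39023.0 in Il34LacZ/LacZ. Of these, 2 read at least 2-fold lower, Sirpa (2.32-fold) and Ltc4s (2.06-fold), and 0 higher, beside 12.1% and 1.67% of all genes. With the trend removed 0 were 2-fold apart in either direction. Of 14 keratinocyte markers measured, 12 reached the floor and 7 of those read at least 2-fold lower, beside 12.1% of all genes. The sum over the 14 was 5169.2 and 966.1. Krt14, the keratin of basal keratinocytes, read 787.4 and 58.6. Of 9 macrophage and monocyte markers 5 read at least 2-fold higher, beside 1.67% of all genes, with sums of 1596.8 and 4149.5. Adgre1 went the other way, at 281.0 and 144.6 (1.85-fold lower). All 4 T cell markers measured were bright on both arrays, with sums of 6149.8 and 5504.6, Cd3e reading 1245.4 and 1250.3. Of 5 fibroblast markers 3 reached the floor, with sums of 239.8 and 385.0. Keratinocytes and macrophages have mitochondria too, and the part of these cells in the differences below was not tested. A lower share of a cell type and less RNA per cell cannot be told apart in such bulk samples.

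Slirp had the largest difference of the group. It encodes a small RNA-binding protein that holds mitochondrial messenger RNAs together with Lrpprc. Slirp read 482.7 in Il34+/LacZ against 52.5 in Il34LacZ/LacZ, just above the floor, which is 7.29-fold lower. Its difference of -2.86 ranked 9 from the lowest of 12843 genes, and it was -2.44 with the trend removed, at rank 17. Lrpprc, its partner, read 127.1 and 63.9, or 1.79-fold lower (difference -0.84, -0.80 with the trend removed). Both partners thus read lower on the same array, by amounts of 7.29-fold and 1.79-fold.

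The 2 genes for transcription of the mitochondrial genome were dim or nearly alike on the arrays. Polrmt, the mitochondrial RNA polymerase, read 149.0 in Il34+/LacZ against 156.0 in Il34LacZ/LacZ, which is a difference of 0.06, or 0.44 with the trend removed. Tfam, which packages mitochondrial DNA and starts its transcription, read 40.3 and 24.0, below the floor on both arrays, so no fold is given.

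Of the transcripts of the mitochondrial genome itself, ND3 and COX2 could be named on the array. ND3, a subunit of respiratory complex I, read 7033.7 in Il34+/LacZ against 7879.7 in Il34LacZ/LacZ (difference 0.16, 0.51 with the trend removed). COX2, a subunit of cytochrome oxidase, read 5005.6 and 5686.9 (difference 0.18, 0.57 with the trend removed). ND3 has 2 probe sets, and its values are those of the one with the higher mean. Neither transcript read lower in Il34LacZ/LacZ, and a link to the readings of Slirp and Lrpprc was not tested. Both lay near the brightest genes looked at, such as Cd74 (7514.1 and 6837.0). Whether the arrays still separate levels at such intensities was not tested. The difference of each lay within the probe set SD.

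The TIM23 channel was split between 2 genes read far lower and 3 read nearly alike. Timm17a, a channel subunit with a short-lived protein, read 768.7 in Il34+/LacZ against 114.6 in Il34LacZ/LacZ, or 6.01-fold lower (difference -2.59, rank 15 from the lowest of 12843, and -1.99 with the trend removed). Timm21, which links the channel to the respiratory chain and to the outer membrane, read 711.3 and 129.8, or 4.99-fold lower (difference -2.32, rank 31, and -1.72 with the trend removed). Both were among the lowest genes of the whole comparison and stayed well above the floor on the dimmer array.

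The pore subunit Timm23 read 489.1 in Il34+/LacZ against 410.9 in Il34LacZ/LacZ, which is -0.24, or 0.38 with the trend removed. Timm50, the receptor that hands presequences to the channel, read 194.6 and 148.1 (difference -0.36, 0.07 with the trend removed). Timm17b, the paralog of Timm17a that takes the same place in the channel, read 112.8 and 102.4 (difference -0.12, 0.05 with the trend removed). The 3 differences lay within the probe set SD by both readings. By the probe set used for each, the paralogs thus differed by -2.59 and -0.12. A second probe set of Timm17a gave a smaller difference, -1.29.

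**Figure D2:**
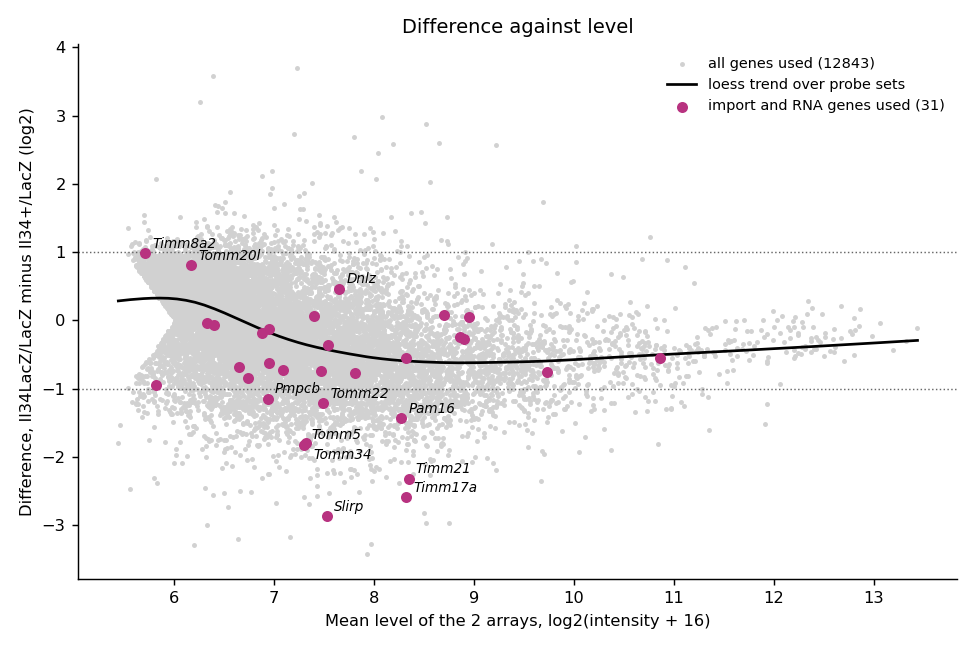
Difference between the arrays (log2, Il34LacZ/LacZ minus Il34+/LacZ) against the mean level for all 12843 genes used (grey) and the 31 import and RNA genes used (magenta), with the loess trend as a line and 2-fold differences dotted. Slirp, Timm17a and Timm21 lie far below the trend line at their level, whereas the genes near the line follow it.

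The 4 import motor genes found by the rule were less far apart. Pam16, which controls the motor's chaperone at the channel exit, read 492.4 in Il34+/LacZ against 172.3 in Il34LacZ/LacZ, or 2.70-fold lower (difference -1.43, -0.84 with the trend removed). Grpel1, the nucleotide exchange factor of the mitochondrial Hsp70, read 214.3 and 121.4 (1.68-fold lower, difference -0.75 and -0.33). Timm44, which tethers Hsp70 to the channel, read 110.9 and 63.1 (1.60-fold lower, difference -0.68 and -0.70). Dnlz, which keeps that Hsp70 soluble, ran the other way at 155.4 and 220.3 (1.38-fold higher, difference 0.46 and 0.93). So 3 of these 4 read lower and 1 higher. Pam16 alone of the 4 passed 2-fold as deposited, by its brighter probe set. Its other probe set gave -0.11, and the mean of both, -0.77, does not pass. The rule leaves out other motor genes, among them the Hsp70 itself, Hspa9, which read 3.19-fold lower. Dnajc19, Dnajc15 and Grpel2, also outside the rule, read 2.12-fold, 1.47-fold and 1.27-fold lower.

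The matrix processing peptidase is a pair of subunits that differed from each other. Pmpcb, the catalytic subunit, read 166.3 in Il34+/LacZ against 66.4 in Il34LacZ/LacZ, or 2.21-fold lower (difference -1.15, -0.98 with the trend removed). Pmpca, the subunit that binds the presequence, read 390.5 and 411.1 (difference 0.07, 0.69 with the trend removed). The subunits thus lay on opposite sides of the typical gene of their level.

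The outer membrane gate had 3 of 10 genes lower by 2-fold or more in Il34LacZ/LacZ and 7 of 10 by 1.5-fold or more, with 0 at least 1.5-fold higher, beside 12.1%, 28.2% and 9.36% of all genes. With the trend removed 2 were lower by 2-fold, 3 by 1.5-fold and 1, Tomm6, higher by 1.5-fold, beside 7.07%, 18.6% and 13.9% of all genes. The median over the 10 was -0.74, and -0.36 with the trend removed. Tomm5, a small subunit of the gate, read 279.7 in Il34+/LacZ against 67.8 in Il34LacZ/LacZ, or 3.53-fold lower (difference -1.82, -1.47 with the trend removed). Tomm34, a cytosolic co-chaperone of preproteins rather than a part of the pore, read 283.0 and 70.0, or 3.47-fold lower (difference -1.80 and -1.44). Tomm22, the central receptor and organizer, read 258.8 and 102.5, or 2.32-fold lower (difference -1.21 and -0.80).

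The remaining subunits differed less. The pore Tomm40 read 277.8 and 155.6 (1.71-fold lower, difference -0.78) and its paralog Tomm40l 138.0 and 83.6 (1.55-fold lower, difference -0.63). The receptors Tomm20 and Tomm70a read 1091.9 and 639.6 (1.69-fold lower) and 159.6 and 90.0 (1.66-fold lower). With the trend removed these 4 differed by -0.27, -0.45, -0.16 and -0.47, all within the probe set SD. Of the small subunits, Tomm7 read 2232.5 and 1516.8 (difference -0.55, -0.05 with the trend removed) and Tomm6 470.9 and 487.4 (difference 0.05, 0.67 with the trend removed). Tomm5, Tomm6 and Tomm7, the small subunits of the same complex, thus ran from 3.53-fold lower to a difference near 0 whose sign depended on the scaling of the arrays. Tomm20l, a Tomm20 paralog, was below the floor in Il34+/LacZ, at 38.5 against 79.4, and at least 1.47-fold higher. The measured difference of Tomm20l was 0.81, and 0.53 with the trend removed.

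No small TIM chaperone or carrier translocase gene passed 1.5-fold as deposited, and several were near or below the floor. Of 6 small TIM genes, 5 reached the floor and 0 differed by 1.5-fold as deposited, beside 28.2% lower and 9.36% higher among all genes. With the trend removed 1 was lower by that much, Timm10, and 1 higher, Timm8a2, beside 18.6% and 13.9% of all genes. Counts over 5 genes cannot be told apart from these shares. Timm13 read 508.4 in Il34+/LacZ against 418.0 in Il34LacZ/LacZ (difference -0.27, 0.35 with the trend removed), and Timm8b 371.8 and 248.4 (difference -0.55, 0.04 with the trend removed). Timm8a1 read 109.5 and 94.2 by its brighter probe set. Its other probe set gave a larger measured difference, -2.30, with a reading of 11.3 in Il34LacZ/LacZ, below the floor. Timm10, the partner of Timm9 in the main chaperone ring, fell below the floor in Il34LacZ/LacZ, at 62.3 against 24.8, and was at least 1.21-fold lower; its measured difference was -0.94, and -1.27 with the trend removed. Timm9 read 36.8 and 37.1. Timm8a2 was below the floor in Il34+/LacZ, at 21.2 against 57.5, and at least 1.13-fold higher. The measured difference of Timm8a2 was 0.98, and 0.66 with the trend removed. Timm22, the carrier channel, read 65.6 and 63.2, and Timm29, its accessory subunit, 70.7 and 66.9. These low readings hardly limit a difference in either direction.

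**Figure D3:**
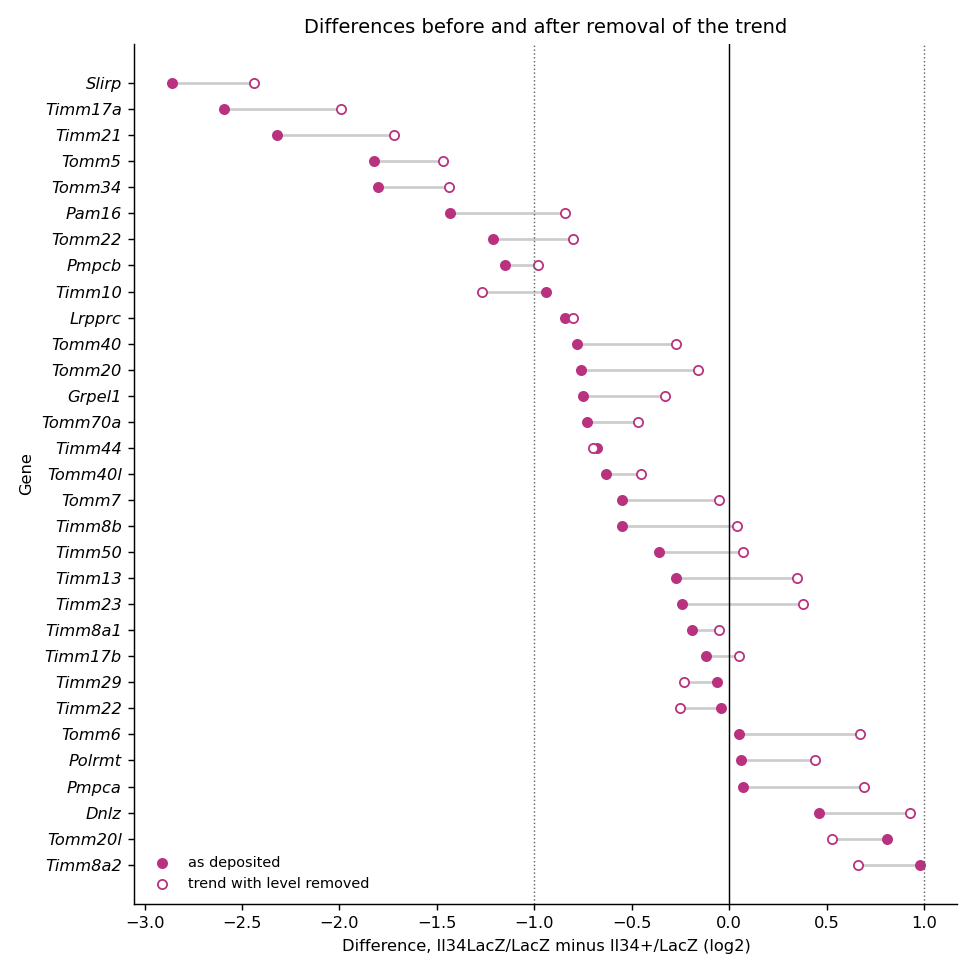
Difference of each of the 31 genes used, as deposited (filled) and with the trend with level removed (open), in log2 units with 2-fold differences dotted. Slirp stays lowest at -2.86 and -2.44, and Timm23, Timm13, Timm50, Timm8b and Timm17b cross from below 0 to above it.

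Of the group, 4 genes had 2 probe sets each, which gave a second reading from the same RNA. The second probe set of Timm17a read 220.6 in Il34+/LacZ against 80.7 in Il34LacZ/LacZ, or 2.45-fold lower, in the same direction as the first at 6.01-fold. For Tomm20 they gave 1.69-fold and 1.81-fold lower, the second reading 741.3 and 403.1. For Pam16 the brighter probe set was 2.70-fold lower and the other read 182.2 and 167.7, a difference of -0.11 that the trend turns to 0.33. For Timm8a1 the brighter had a difference of -0.19, whose sign depends on the scaling, and the other, at 117.8 and 11.3, one of -2.30. The reading of 11.3 is below the floor, so the size of that difference is uncertain. Probe sets thus disagreed on the size for Timm17a and on whether there was any sizeable difference for Pam16 and Timm8a1. Which transcript or gene copy each probe set reads is not known here, so Pam16 and Timm8a1 are uncertain. Slirp and Timm21 have 1 probe set each and no such second reading.

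**Figure D4:**
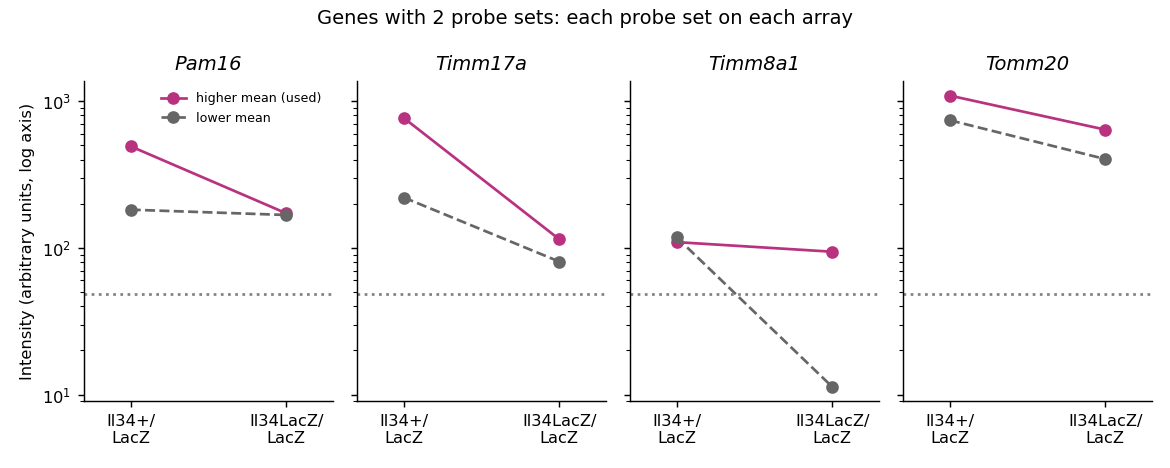
Intensity of both probe sets of Pam16, Timm17a, Timm8a1 and Tomm20 on the 2 arrays, on a log axis with the floor dotted; solid lines are the probe set used. Both lines slope down for Timm17a and Tomm20, while 1 line is nearly flat for Pam16 (182.2 and 167.7) and for Timm8a1 (109.5 and 94.2).

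Promoters of the group were searched for 3 motifs tied to nuclear genes for mitochondria, because many of these genes read lower together. RefSeq promoters of build GRCm38.p6, from 250 bases before the start to 50 after it, were found for 30 of the 33 genes. The motif CCGGAAG, bound by ETS factors such as GABP, was present on either strand in 15 of these 30, and in 14 of the 28 that reached the floor, against 17.8% of 10203 genes that reached the floor and have a promoter in the table. The motif GCGCATGCG, named for NRF1, was in 1 of the 28 (3.57%, against 3.63%), and AAGATGGC, named for YY1, in 2 of the 28 (7.14%, against 4.75%). The motifs share no core and were counted separately. Of the genes at least 2-fold lower, 7 have a promoter in the table and 4 of them hold CCGGAAG. That share is near the 14 of 28 over all members that reached the floor, so the motif does not set the lower genes apart. Timm23 and Pmpca are among those that hold it and were not lower by 1.5-fold. A match is a run of letters and not a binding site. Only exact runs were counted, so a run that differs by 1 base is not marked.

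Stretches before the start of 6 of the 8 genes at least 2-fold lower are shown so that the matches can be seen, with Timm17b beside its paralog Timm17a. Timm21 and Pam16 are not shown; the window of Pam16 holds no match, and its start lies inside an overlapping gene. Capitals mark CCGGAAG or its reverse complement, and all are written 5′ to 3′ on the gene's strand. Slirp starts inside an overlapping gene, so only 30 bases around its match nearest the start are given, from chr12:87443873-87443902 on the plus strand; its whole window holds 3 matches. Tomm34 comes from chr2:164071170-164071289 on the minus strand, Tomm22 from chr15:79670748-79670867 and Pmpcb from chr5:21737040-21737159, both on the plus strand. Timm17a comes from chr1:135313738-135313857 and Tomm5 from chr4:45108114-45108233, both on the minus strand, and Timm17b from chrX:7899270-7899335 on the plus strand, where the neighbour Pqbp1 limits the stretch.
Slirp: ctctggcaggttCTTCCGGggtcacgactc
Tomm34: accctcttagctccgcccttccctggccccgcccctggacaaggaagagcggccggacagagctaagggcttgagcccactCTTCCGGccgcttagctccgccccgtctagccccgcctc
Tomm22: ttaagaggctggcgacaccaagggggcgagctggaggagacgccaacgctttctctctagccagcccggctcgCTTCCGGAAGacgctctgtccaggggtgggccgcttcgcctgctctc
Pmpcb: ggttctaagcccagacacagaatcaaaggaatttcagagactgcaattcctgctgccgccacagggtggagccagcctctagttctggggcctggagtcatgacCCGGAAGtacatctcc
Timm17a: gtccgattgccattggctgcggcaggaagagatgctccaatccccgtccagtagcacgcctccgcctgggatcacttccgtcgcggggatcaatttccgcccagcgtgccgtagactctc
Tomm5: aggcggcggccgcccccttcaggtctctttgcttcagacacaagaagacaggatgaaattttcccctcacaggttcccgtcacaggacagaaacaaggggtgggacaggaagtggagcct
Timm17b: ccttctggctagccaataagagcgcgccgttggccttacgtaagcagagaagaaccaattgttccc
The first 4 hold the motif, which in Tomm22 is matched by 2 overlapping runs on opposite strands, and the last 3 do not. The paralogs Timm17a and Timm17b, with differences of -2.59 and -0.12 by the probe sets used, both lack it in these windows.

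Some of these genes share their promoter region with a gene that starts in the opposite direction within 500 bases. Timm23 starts 58 bases from Parg, which degrades poly(ADP-ribose). Parg read 168.3 in Il34+/LacZ against 61.5 in Il34LacZ/LacZ, a difference of -1.25 against -0.24 for Timm23. Timm8b starts 52 bases from Sdhd, a subunit of respiratory complex II, which read 647.0 and 323.6 (difference -0.97 against -0.55). Pmpca starts 32 bases from Entr1, at 262.9 and 282.9 (difference 0.10 against 0.07), and Timm17b 67 bases from Pqbp1, at 340.7 and 245.6 (difference -0.45 against -0.12). Slirp starts 57 bases from Alkbh1, a nucleic acid demethylase, which has no probe set of its own symbol alone and so no value here. In 3 of these 4 measured pairs the 2 differences lay within the probe set SD of each other, and for Timm23 and Parg they did not. The quartiles over all genes were -0.69 and 0.42, so unrelated genes can lie as close. No share for unrelated pairs was taken, and an effect of the shared promoter region was not tested.

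Other genes of the same processes were described from lists chosen with earlier results of these data known. Of 28 other import, sorting and folding genes, all above the floor on at least 1 array, 7 were lower by 2-fold or more and 0 higher by that much, beside 12.1% and 1.67% of all genes, and the median was -0.54. With the trend removed these counts became 5 and 1, beside 7.07% and 4.16% of all genes, and the median -0.58. Of the 5, Dnajc11, Clpx and Hscb read below the floor in Il34LacZ/LacZ, at 44.9, 38.7 and 31.3. Trap1, the mitochondrial Hsp90, read 404.6 in Il34+/LacZ against 95.4 in Il34LacZ/LacZ, or 3.78-fold lower. Hspa9, the mitochondrial Hsp70 that powers the import motor, read 429.3 and 123.5, or 3.19-fold lower. The folding chamber genes Hspd1 and Hspe1 read 854.0 and 278.1 (2.96-fold lower) and 1118.2 and 510.4 (2.15-fold lower). The largest difference upward was in Mtx1, an outer membrane metaxin, which read 174.1 and 263.5 (1.47-fold higher, difference 0.56 and 1.07 with the trend removed).

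Of 26 other mitochondrial RNA, transcription and DNA maintenance genes on the array, 19 reached the floor. Of those 19, 2 were lower by 2-fold or more, a share near the 12.1% of all genes, and 0 higher (1.67% of all genes), and the median was -0.64. With the trend removed these counts were 5 and 0, beside 7.07% and 4.16% of all genes, and the median -0.60. Of the 5, Tfb2m, Fastkd2 and Twnk read below the floor in Il34LacZ/LacZ, at 26.6, 21.9 and 38.7. Mtpap, the poly(A) polymerase of mitochondrial RNA, read 215.1 and 66.7, or 2.79-fold lower. Ssbp1, which coats single-stranded mitochondrial DNA, read 139.0 and 51.9, or 2.28-fold lower. Tfb2m, the partner of Polrmt in starting transcription, read 69.6 and 26.6, the second below the floor, and was at least 1.32-fold lower. Fastkd2, an RNA-binding protein of the mitochondrial ribosome's assembly, read 54.5 and 21.9 and was at least 1.09-fold lower.

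Of 10 genes that report on mitochondrial content, 3 were lower by 2-fold or more and 0 higher, beside 12.1% and 1.67% of all genes. Hspa9 is among these 3 and was already counted in the import, sorting and folding list. The median of the 10 was -0.94. With the trend removed 1, the same Hspa9, was lower and 1, Cycs, higher, beside 7.07% and 4.16%, and the median was -0.32. Citrate synthase, Cs, read 683.3 and 301.1 (2.21-fold lower), the ADP/ATP carrier Slc25a5 3387.8 and 1405.3 (2.39-fold lower), and the prohibitin Phb2 1298.3 and 653.1 (1.96-fold lower). Cytochrome c, Cycs, went the other way at 402.8 and 672.8 (1.64-fold higher). Of 12 regulators of such genes 11 reached the floor, and 0 were 2-fold lower or higher, beside 12.1% and 1.67% of all genes. By 1.5-fold or more 3 were lower and 1 higher, beside 28.2% and 9.36%. The median of the 11 was -0.32, or -0.15 with the trend removed. The transcription factors Myc and Yy1 read 700.2 and 367.1 (1.87-fold lower) and 516.9 and 285.4 (1.77-fold lower), within the probe set SD at -0.28 and -0.21 with the trend removed. Gabpa, the DNA-binding subunit of GABP, read 237.2 and 182.9 (difference -0.35, 0.16 with the trend removed), and Esrra, a nuclear receptor of energy metabolism genes, 86.4 and 148.9 (1.61-fold higher).

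**Figure D5:**
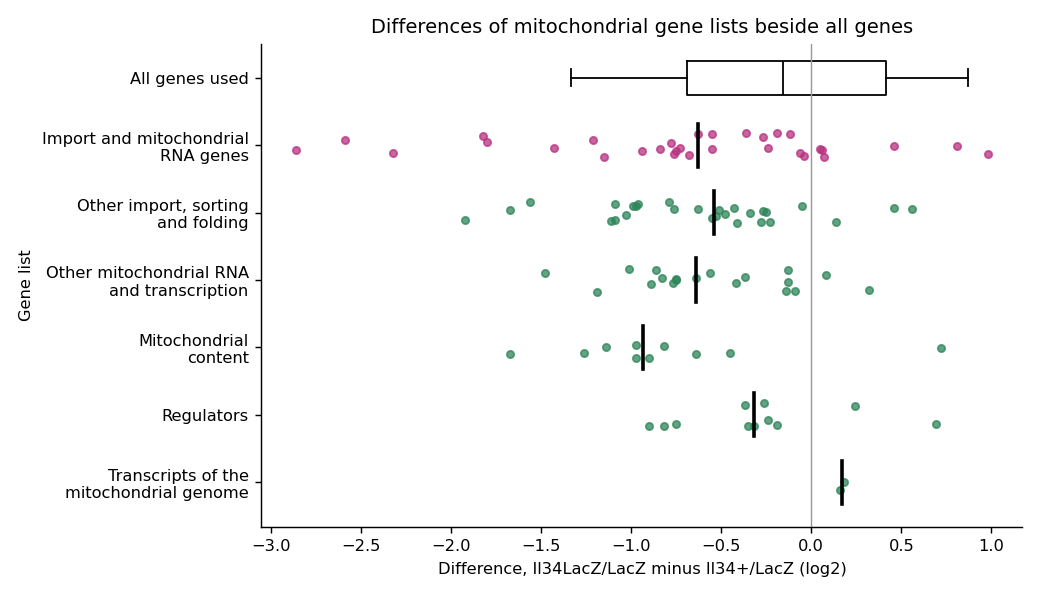
Difference (log2) of each gene at or above the floor in the import and RNA group and in 5 other mitochondrial lists, with a bar at each list's median, under a box of all 12843 genes (median -0.16, quartiles, whiskers from the 5th to the 95th percentile). Medians lie at -0.63 for the import and RNA genes and at -0.54, -0.64, -0.94, -0.32 and 0.17 for the lists beneath, while the box spans both signs. Hspa9 is shown in both the import, sorting and folding list and the content list.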

How the data were processed

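The deposited values are processed intensities, linear in scale, 1 for each probe set on each array. The authors' summarisation, background correction and scaling are not stated in the labels or the file. Per the labels' protocols, sorted cells went straight into lysis buffer, and 2 ng of total RNA was labelled with biotin. Of 34760 probe sets, the platform annotation gave 21640 a single symbol, 1321 several and 11799 none. RefSeq (GRCm38.p6) listed the gene number of all 33 members under the same symbol. Median intensity was 45.2 (Il34+/LacZ) and 51.9 (Il34LacZ/LacZ), and the 75th percentile 142.7 and 116.4. No detection calls were used here, and the number of arrays limits the precision.

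Values were taken as log2(intensity + 16), and differences as Il34LacZ/LacZ minus Il34+/LacZ. A gene was used if its higher reading reached the floor of 48.7, the median of all probe sets. Calls and folds set readings below the floor at the floor. The trend was a loess fit with a fraction of 0.3 over probe sets with 1 symbol, and values with the trend removed use measured readings. Values on both arrays were given for members past 2-fold, for members with several probe sets and for up to 4 genes of each role or list with the largest difference; others named were chosen after their values were seen. The members and lists were chosen with earlier results of these data known. The procedure was tested on simulated data. Python 3.11.15, numpy 2.4.6, pandas 2.3.3, statsmodels 0.14.6 and matplotlib 3.10.9 were used.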

Additional observations from a re-analysis of the deposited data

How the results depend on the processing

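The count of members at least 2-fold lower was 8 as reported and ran from 6 to 8 over the 10 alternatives, and the count at least 2-fold higher was 0 in each. The same share over all genes ran from 5.33% with quantile normalization to 16.4% with arrays centred on their medians. The median of the members ran from -0.78 (centred arrays, all genes -0.31) to -0.25 (trend removed, all genes 0.03). Slirp, Timm17a, Timm21, Tomm5 and Tomm34 were at least 2-fold lower under all 10 alternatives, of which 7 can change a gene's measured difference and 6 that of a gene with 1 probe set, such as Slirp. Pam16, Pmpcb and Tomm22 lost 2-fold under some. Of the 31 members, 11 changed sign under at least 1 alternative, among them Timm23 (-0.39 to 0.38), Timm50, Timm17b, Timm13, Timm8b, Tomm6 and Pmpca, so the direction of these depends on the processing. Timm8a1 ran from -1.24, where a probe set below the floor in Il34LacZ/LacZ entered the mean over probe sets, to 0.07. No paired analysis was possible because each genotype has 1 array, and for the same reason no array could be left out. With no detection calls, readings near the floor carry little information.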
